A study of Mus musculus with 40 samples.

Results

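Quadriceps muscle of C57BL/6 mice that did no treadmill exercise was compared 4 h apart across the start of the night. The libraries labelled sedentary ZT16 (3) were set against those labelled sedentary ZT12 (3), which makes 6 of the 40 libraries of the series. ZT is zeitgeber time, the hours since lights on. In the usual light cycle of 12 h the lights go off at ZT12, so both groups bracket the first 4 h of darkness, when mice are awake, move and eat. Both groups are sedentary controls of a treadmill study, with no run, agent or altered allele named in the labels, and age, sex, feeding and cage activity are not given in the sources used here. Sedentary means without treadmill exercise. It does not mean without movement in the cage. The muscle is described in the labels' protocol as the glycolytic part of the quadriceps, and the description of each library carries its own tag, read here as 1 animal per library.

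The 6 libraries gave 45630996 to 79491550 estimated counts. Levels are CPM (counts scaled to a common library size), which allow a gene to be compared between libraries but not with a gene of another length. Marker sums and the correlation between libraries set ZT12 replicate 1 somewhat apart: its Spearman correlation with the 2 other ZT12 libraries was 0.992 and 0.987, against 0.994 between those 2. ZT12 replicate 3 correlated with the ZT16 libraries at 0.990, 0.991 and 0.992. These values are above its 0.987 with ZT12 replicate 1, so the libraries do not group by time alone. Muscle fibre markers such as Acta1 and Ckm made up most of the named marker signal in every library, with a sum over 11 genes of 165457, 185369 and 186037 CPM at ZT12 and 152082, 163869 and 174099 CPM at ZT16. The 10 adipocyte markers summed to 3064, 1702 and 958 CPM at ZT12 and 1027, 771 and 928 CPM at ZT16, and the 11 slow fibre genes to 505, 152 and 119 CPM at ZT12 and 2691, 858 and 215 CPM at ZT16. None of these 3 lists had a member that passed the test, and their sums are given again beside the genes that moved with them. In bulk tissue, fewer cells of a type and less RNA per cell cannot be told apart.

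Most cells keep time with a loop of transcription factors. BMAL1 (gene Arntl) pairs with CLOCK or NPAS2 and switches on genes through the E-box, among them the PER and CRY repressors, which then shut the pair down. A second arm runs through the nuclear receptors REV-ERB (Nr1d1, Nr1d2), which repress Arntl through ROR elements, and ROR, which activate it. The PAR bZIP factors DBP, TEF and HLF and their rival NFIL3 pass the rhythm on through the D-box. Heat shock genes are a separate system: heat shock factor binds repeated GAA units and switches on chaperones when proteins misfold or body temperature rises, and body temperature of mice is itself higher in the dark phase.

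Between ZT12 and ZT16, 1377 of 15097 genes tested (9.12%) changed, by edgeR's quasi-likelihood test at an adjusted p under 0.05. Rises numbered 793 (5.25%) and falls 584 (3.87%), and 145 rises and 66 falls reached a factor of 2. The balance depends on the scaling: rises were 57.6% of the calls here and 48.5% with upper-quartile factors (674 rises and 715 falls). All ZT16 values lay outside the range of the ZT12 values for 4142 genes (27.4%), so such a gap is by itself common here. Genes were ranked among those called with an average log2 CPM of at least 1, taken over all 24 quadriceps libraries, whose groups did not overlap. The largest rises included heat shock genes and the clock activators Arntl and Npas2, though Npas2 was below 1 CPM in each of the 6 libraries compared. Among the largest falls were the clock repressor Ciart, the fasting-responsive gene Angptl4 and the arrestin-domain gene Arrdc2. The median log2 fold change over all genes was -0.01. Single libraries moved the count of 1377: it was 576 without ZT12 replicate 2, 754 without ZT16 replicate 2, 776 without ZT16 replicate 1 and 811 without ZT12 replicate 1. A fit of the 6 libraries alone called 549 genes.

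**Figure D1:**
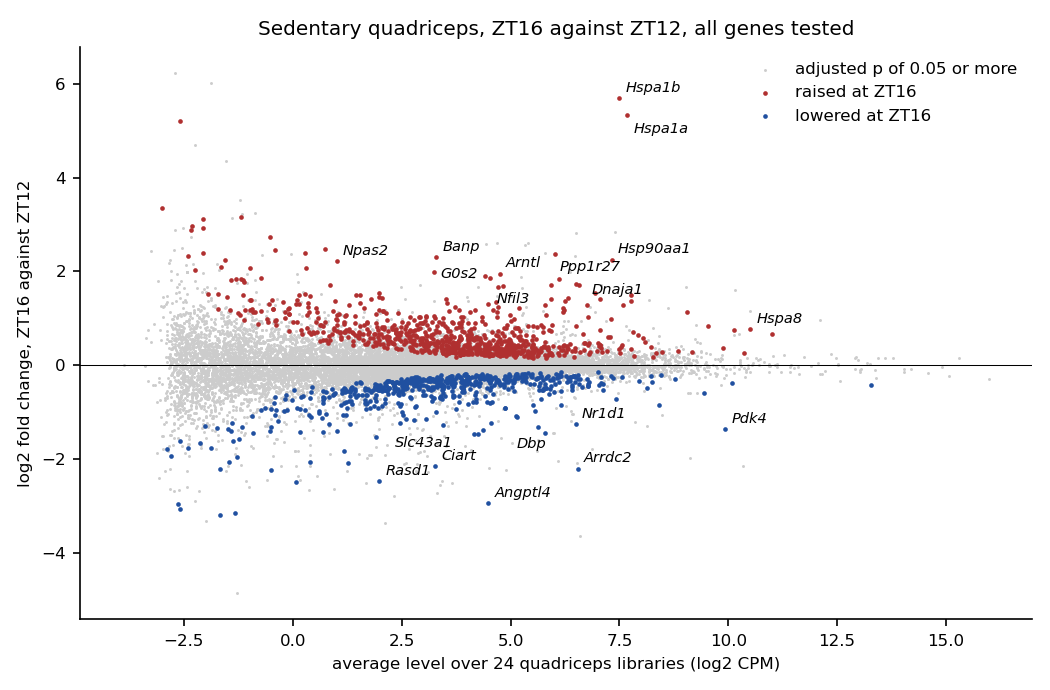
Log2 fold change from ZT12 to ZT16 (vertical axis) against the average level in log2 CPM over the 24 quadriceps libraries (horizontal axis) for the 15097 genes tested. The 793 raised genes are in red, the 584 lowered genes in blue and all others in grey. Hspa1a and Hspa1b stand above 5 on the log2 scale, away from all other well expressed genes.

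Hspa1a and Hspa1b had the largest rises among called genes with an average log2 CPM of at least 1. Hspa1a (GRCm38.p6 chr17:34969359-34972156), an inducible HSP70 chaperone, was at 5.37, 4.55 and 7.74 CPM in the ZT12 libraries and 63.8, 272 and 382 CPM in the ZT16 libraries. Every ZT16 library was above every ZT12 library, and the ZT16 libraries differed among themselves, with replicate 1 well below the other 2. Its log2 fold change was 5.34 ± 1.06, adjusted p = 0.00511 (95% interval 3.10 to 7.58). Hspa1b (GRCm38.p6 chr17:34956429-34959238), its neighbour and near-identical copy, was at 4.78, 2.49 and 5.34 CPM in the ZT12 libraries and 43.8, 253 and 359 CPM in the ZT16 libraries (log2 fold change 5.70 ± 1.17, adjusted p = 0.00661). Reads shared by the pair were divided by the authors' counting model, so the 2 values are uncertain as single genes. In a fit of the 6 libraries alone both were just outside the threshold, at an adjusted p of 0.0515 for Hspa1a and 0.0646 for Hspa1b.

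Of 28 heat shock and chaperone genes measured, 15 passed the test, all 15 as rises (793 of 15097, 5.25%, for all genes), none fell and 13 did not pass. Their median log2 fold change was 0.56. The cytosolic HSP90 gene Hsp90aa1 was at 42.2, 33 and 36.9 CPM in the ZT12 libraries and 113, 171 and 249.7 CPM in the ZT16 libraries (log2 fold change 2.25 ± 0.42, adjusted p = 0.00342), and the groups did not overlap. Dnaja1, an HSP40 co-chaperone named here after its values were seen, was at 37.2, 26.5 and 31.2 CPM in the ZT12 libraries and 85.6, 93.1 and 131 CPM in the ZT16 libraries (log2 fold change 1.71 ± 0.34, adjusted p = 0.005). Hspb1, the small heat shock protein HSP27 of muscle, also named after its values were seen, was at 77.1, 63.5 and 75.5 CPM in the ZT12 libraries and 149, 220.2 and 242 CPM in the ZT16 libraries (log2 fold change 1.5 ± 0.37, adjusted p = 0.0177), a call lost without ZT12 replicate 1 or 2 or ZT16 replicate 2. Rises thus included members of the HSP70, HSP90, HSP40 and small heat shock families. The constitutive HSP70 gene Hspa8 rose less, from 925, 790.5 and 948 CPM at ZT12 to 1450.1, 1431 and 1644 CPM at ZT16 (log2 fold change 0.76 ± 0.11, adjusted p = 0.000369). Hspa4l, an HSP110 family member, had tight groups, at 5.52, 4.96 and 5.02 CPM in the ZT12 libraries and 10.1, 9.25 and 9.42 CPM in the ZT16 libraries (log2 fold change 0.89 ± 0.13, adjusted p = 0.00037). Hsph1, the HSP110 gene itself, was at 84.5, 68.3 and 87.6 CPM in the ZT12 libraries and 112, 135 and 161 CPM in the ZT16 libraries (log2 fold change 0.76 ± 0.18, adjusted p = 0.0109).

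Ahsa1, Fkbp4 and Stip1, co-chaperones of HSP90, rose by smaller steps. Ahsa1, which stimulates the HSP90 ATPase, was at 81.2, 85.9 and 90 CPM in the ZT12 libraries and 102, 109 and 111 CPM in the ZT16 libraries (log2 fold change 0.32 ± 0.06, adjusted p = 0.00142). Fkbp4, a prolyl isomerase that binds HSP90, was at 114, 122 and 122 CPM in the ZT12 libraries and 142, 149.6 and 142 CPM in the ZT16 libraries (log2 fold change 0.27 ± 0.05, adjusted p = 0.00273), and Stip1, which links HSP70 to HSP90, had a log2 fold change of 0.47 ± 0.10, adjusted p = 0.00411. The remaining rises were Hsp90ab1 (0.27), Bag3 (0.99), Dnajb4 (1.22) and Cacybp (0.31), of which Bag3 lost its call in all 6 fits without 1 library and Hsp90ab1 passed in 6 of the 14 other settings of scaling, filter, model and libraries. Dnajb1 (HSP40) missed the threshold in spite of groups that did not overlap: it was at 11.1, 9.18 and 13.3 CPM in the ZT12 libraries and 30, 66.2 and 141 CPM in the ZT16 libraries (log2 fold change 2.82 ± 1.02, adjusted p = 0.0947). Hsf1, which encodes the main heat shock factor, was at 41.3, 42.4 and 44.5 CPM in the ZT12 libraries and 43.1, 48.4 and 48.4 CPM in the ZT16 libraries (log2 fold change 0.13 ± 0.06, adjusted p = 0.218). The list's count of 15 became 9 to 13 when 1 library was left out, 9 without ZT12 replicate 2. In fits added after the data were seen, a per-library score entered as a covariate: the count was 11 with an adipocyte score and 14 with a slow fibre score.

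The promoter letters are shown because these genes moved together. A pair of inverted heat shock units, GAANNTTC or TTCNNGAA on either strand, was searched from 250 bases before to 50 after each RefSeq transcript start. This pair of units was added after a search for 3 units in a row (GAANNTTCNNGAA or TTCNNGAANNTTC) had left out Hspa1a. The pair was present in 14 of the 23 heat shock list genes with a promoter sequence (60.9%), and in 8 of the 12 of them that rose (66.7%), against 14.1% of the 11856 genes tested with a promoter. Among all raised genes the share was 14.2%, as it was among all lowered genes. The 3 units in a row were in 4 of the 23 list genes, in 1 of the 12 of them that rose (8.33%) and in 0.574% of all. Ahsa1, Stip1, Hspa4l and Cacybp rose and hold no pair in this window. Chordc1, Hspd1 and Hspe1 hold several pairs and 3 units in a row, and did not pass. In the windows below, from RefSeq on GRCm38.p6, 5′ to 3′ on the gene's strand, the heat shock units are in capitals. Those of Hspa1a and Hspa1b lie at -104 to -97 from the transcript start (counted as 0), and these 2 windows are identical letter for letter. In Dnaja1 the match is at -124 to -117, in 1 of its 3 promoters. In Hspb1 there are 2 between -117 and -90, and in Hsph1 the 3 units lie just inside the transcript, at 15 to 27.
Hspa1a, chr17:34972241-34972272, minus strand: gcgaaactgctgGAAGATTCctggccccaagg
Hspa1b, chr17:34959323-34959354, minus strand: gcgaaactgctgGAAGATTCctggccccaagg
Dnaja1, chr4:40722332-40722363, plus strand: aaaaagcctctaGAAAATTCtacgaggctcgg
Hspb1, chr5:135887790-135887841, plus strand: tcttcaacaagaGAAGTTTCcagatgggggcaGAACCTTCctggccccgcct
Hsph1, chr5:149636276-149636312, minus strand: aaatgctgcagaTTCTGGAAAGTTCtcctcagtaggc
A match describes letters and not binding, which was not measured.

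**Figure D2:**
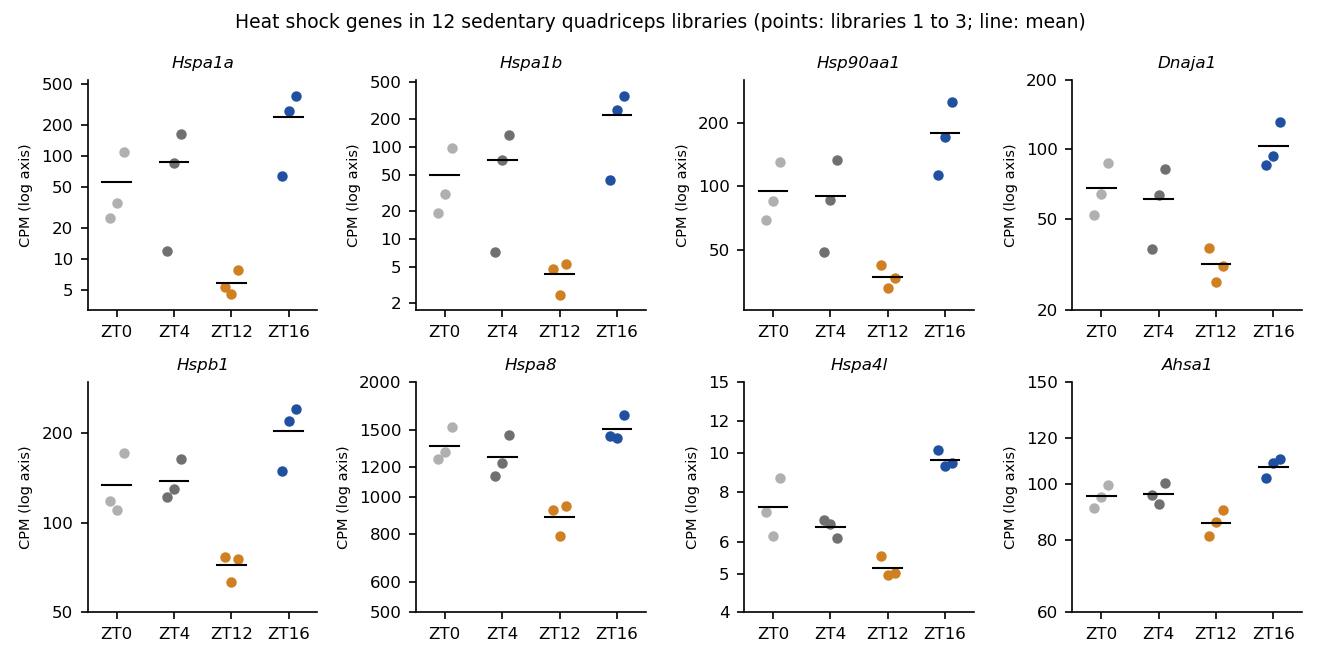
CPM (log axis) of 8 heat shock genes in the 12 sedentary quadriceps libraries, with a point per library and a line at the mean of 3. By their means, ZT12 (orange) is the lowest and ZT16 (blue) the highest group for each of the 8 genes, while the ZT0 and ZT4 libraries (greys) of Hspa1a and Hspa1b spread widely.

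The ZT12 libraries were low among all sedentary libraries for these genes. Hspa1a was at 25, 35 and 108 CPM at ZT0 and 11.9, 85.4 and 163 CPM at ZT4, above all 3 ZT12 libraries in each of the 6, and the change from ZT0 to ZT4 was 0.63 ± 0.87 on the log2 scale. The change from ZT12 to ZT16 exceeded that from ZT0 to ZT4 by 4.71 ± 1.31, adjusted p = 0.0307, a call lost without 1 library in 6 of the 12 cases and in the fit of the 12 sedentary libraries. Hspa8 was at 1257, 1313 and 1527 CPM at ZT0 and 1139, 1229.5 and 1456 CPM at ZT4, and its changes differed by 0.86 ± 0.16, adjusted p = 0.00184.

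A list of RNA binding proteins induced by mild cold or heat held falls and no rise. Of 4 genes listed, 3 fell (3.87% of all genes fell), none rose and Hnrnpdl did not pass (log2 fold change -0.04 ± 0.05, adjusted p = 0.662). Cirbp, a cold-inducible RNA binding protein, was at 28.2, 31.8 and 29.5 CPM in the ZT12 libraries and 22, 22.6 and 20.3 CPM in the ZT16 libraries (log2 fold change -0.46 ± 0.10, adjusted p = 0.00855). Rbm3, the other classic cold-inducible gene, was at 69.3, 71.9 and 65.6 CPM in the ZT12 libraries and 52, 47.7 and 44.1 CPM in the ZT16 libraries (log2 fold change -0.52 ± 0.12, adjusted p = 0.00923). Both had ZT16 libraries that were all below the ZT12 libraries. Srsf5, a splicing factor, fell most and with the least spread, from 94.5, 95.7 and 91.9 CPM at ZT12 to 55.6, 51.1 and 51.1 CPM at ZT16 (log2 fold change -0.84 ± 0.09, adjusted p = 2.53e-05). The call of Cirbp was lost without ZT12 replicate 2 (adjusted p = 0.0524). The part of body temperature, feeding or cage activity in these falls and in the heat shock rises was not tested.

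Among the core clock activators, Arntl and Npas2 rose. Arntl (GRCm38.p6 chr7:113178471-113314126), which encodes BMAL1, was at 4.57, 3.07 and 4.09 CPM in the ZT12 libraries and 13.7, 12.47 and 19.3 CPM in the ZT16 libraries. The lowest ZT16 library was more than 2-fold above the highest ZT12 library, and the log2 fold change was 1.95 ± 0.18, adjusted p = 5.52e-06 (95% interval 1.58 to 2.33). Npas2, a partner of BMAL1, was scarce in both groups, at 0.0827, 0.117 and 0.112 CPM in the ZT12 libraries and 0.553, 0.577 and 0.342 CPM in the ZT16 libraries (log2 fold change 2.22 ± 0.42, adjusted p = 0.00245). Clock, the other partner, was at 14.2, 13.7 and 14.2 CPM in the ZT12 libraries and 16.7, 16.8 and 18.2 CPM in the ZT16 libraries and missed the threshold (log2 fold change 0.30 ± 0.09, adjusted p = 0.0543). The nuclear receptor genes Rora, with a log2 fold change of -0.35 ± 0.12, adjusted p = 0.0732, and Rorb, with -0.28 ± 0.27, adjusted p = 0.55, did not pass. So 2 of 6 clock activators rose (5.25% for all genes), none fell and the median log2 fold change of the 6 was 0.09.

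Of 10 clock repressors, 5 fell (3.87% for all genes), 1 rose and 4 did not pass, with a median of -0.52. Nr1d1 (GRCm38.p6 chr11:98767932-98775377), the REV-ERB alpha gene, was at 57.3, 46.8 and 54.7 CPM in the ZT12 libraries and 17.7, 27.6 and 21.4 CPM in the ZT16 libraries (log2 fold change -1.25 ± 0.20, adjusted p = 0.00107). Nr1d2, REV-ERB beta, fell less (log2 fold change -0.35 ± 0.11, adjusted p = 0.0464), and its call was lost in each of the 6 fits that left out 1 library. Ciart, which binds BMAL1 and represses its target genes, was at 9.1, 12.6 and 12.8 CPM in the ZT12 libraries and 1.56, 3.03 and 3.17 CPM in the ZT16 libraries (log2 fold change -2.14 ± 0.42, adjusted p = 0.00433). Per3 was at 65.3, 71.8 and 63.2 CPM in the ZT12 libraries and 40, 37.1 and 28.8 CPM in the ZT16 libraries (log2 fold change -0.92 ± 0.17, adjusted p = 0.00266) and Cry2 at 67.2, 72.2 and 68.1 CPM in the ZT12 libraries and 51.4, 52.4 and 48.7 CPM in the ZT16 libraries (log2 fold change -0.44 ± 0.11, adjusted p = 0.0138). In all 4 of Nr1d1, Ciart, Per3 and Cry2 the groups did not overlap. Cry1 was the repressor that rose, at 12.9, 15 and 13.7 CPM in the ZT12 libraries and 18.9, 20.2 and 18.6 CPM in the ZT16 libraries (log2 fold change 0.47 ± 0.08, adjusted p = 0.00147). The PER genes diverged: Per1 was at 101, 129 and 125 CPM in the ZT12 libraries and 56.6, 53.7 and 63.3 CPM in the ZT16 libraries, a gap that did not pass (log2 fold change -1.03 ± 0.37, adjusted p = 0.0851), and Per2 was at 38.8, 41.6 and 37.8 CPM in the ZT12 libraries and 46.5, 45.4 and 37.5 CPM in the ZT16 libraries with overlapping groups (log2 fold change 0.13 ± 0.41, adjusted p = 0.876). Bhlhe41 was at 49.6, 44.9 and 51.5 CPM in the ZT12 libraries and 27.6, 33.2 and 35.9 CPM in the ZT16 libraries (log2 fold change -0.59 ± 0.19, adjusted p = 0.0641), and Bhlhe40 had overlapping groups (log2 fold change 0.09 ± 0.18, adjusted p = 0.801). Per1 passed in 2 of the 14 other settings of scaling, filter, model and libraries, and Bhlhe41 in 3. The fit of the 6 libraries alone called both Per1 and Bhlhe41.

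Of 12 clock outputs, 4 fell (3.87% for all genes), 1 rose and 7 did not pass, with a median of -0.33. Dbp (GRCm38.p6 chr7:45705100-45710203), a D-box activator, was at 119, 122 and 119.6 CPM in the ZT12 libraries and 42.5, 56.5 and 45.8 CPM in the ZT16 libraries. The ZT12 libraries agreed within 3 CPM and all ZT16 libraries were lower by more than 2-fold (log2 fold change -1.32 ± 0.14, adjusted p = 2.53e-05). Its relatives Hlf, at 28.3, 25.1 and 25 CPM in the ZT12 libraries and 16.9, 16.8 and 16.3 CPM in the ZT16 libraries (log2 fold change -0.65 ± 0.13, adjusted p = 0.00379), and Tef, at 404, 438 and 414 CPM in the ZT12 libraries and 324, 333 and 327 CPM in the ZT16 libraries (log2 fold change -0.35 ± 0.08, adjusted p = 0.0103), fell with it. Nfil3, which represses through the same D-box, moved opposite to them, at 18.9, 26.8 and 25.2 CPM in the ZT12 libraries and 52.4, 62.6 and 74.5 CPM in the ZT16 libraries (log2 fold change 1.42 ± 0.21, adjusted p = 0.000448). Tspan4, a tetraspanin membrane protein, was at 26.3, 17.7 and 18.5 CPM in the ZT12 libraries and 14.7, 13 and 12.2 CPM in the ZT16 libraries (log2 fold change -0.65 ± 0.18, adjusted p = 0.0325), and its call was lost without ZT12 replicate 1 or any 1 of the ZT16 libraries. Usp2 (log2 fold change -0.35 ± 0.16, adjusted p = 0.175), Pfkfb3 (log2 fold change -1.06 ± 0.43, adjusted p = 0.135) and Ppp1r3c (log2 fold change 0.57 ± 0.21, adjusted p = 0.0976) were among the 7 that did not pass. Without 1 library in turn, the 5 lowered repressors became 3 to 4, with 3 without ZT12 replicate 2, and the 4 lowered outputs 3 to 4.

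Clock motifs are printed for a selection of clock genes that hold one, of which Per1 did not pass the test. The E-box CACGTG was present in the promoter of 4 of 8 clock repressors and 5 of 10 clock outputs that had a sequence, against 11.2% of all genes tested with a promoter, 9.05% of raised and 14% of lowered genes. D-boxes (TTATGTAA, TTACATAA or TTACGTAA, both strands) were in 0.928% of all and ROR elements (TAGGTCA or its reverse complement TGACCTA) in 2.34%. Capitals mark the motif. Ciart, Per1, Tef and Tspan4 show the E-box, 3 of them in Ciart. E-boxes are also in the windows of Cry1, which rose, and of Bhlhe41, Pfkfb3, Ppp1r3c and Coq10b, which did not pass. The windows of Dbp, Hlf, Nr1d1, Nr1d2, Per3 and Cry2, which fell, hold no E-box. Per3 shows 2 D-boxes, and Arntl and Nfil3 a ROR element, which Npas2 and Cry1, the other clock genes that rose, do not have in this window.
Ciart, chr3:95882255-95882356, minus strand: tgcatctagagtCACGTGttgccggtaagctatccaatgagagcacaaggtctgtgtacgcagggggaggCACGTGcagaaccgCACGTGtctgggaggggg
Per1, chr11:69098771-69098800, plus strand: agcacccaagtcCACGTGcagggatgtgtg
Tef, chr15:81802534-81802563, plus strand: gtgctgtggctcCACGTGctgcagctggca
Tspan4, chr7:141476317-141476346, plus strand: cccccatggagcCACGTGcagagccacgag
Per3, chr4:151044804-151044882, minus strand: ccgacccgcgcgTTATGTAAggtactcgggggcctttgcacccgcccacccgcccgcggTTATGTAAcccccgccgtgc
Arntl, chr7:113207529-113207559, plus strand: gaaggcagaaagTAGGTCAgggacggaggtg
Nfil3, chr13:52981033-52981063, minus strand: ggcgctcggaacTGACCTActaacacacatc
The ROR element of Arntl lies at 30 to 36 after 1 of its 2 transcript starts, which is inside the gene span given above. That of Nfil3 lies at -12 to -6. The E-boxes of Ciart lie between -116 and -39. Where a gene has several starts, such as 2 for Per1, the promoter that holds the motif is shown.

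**Figure D3:**
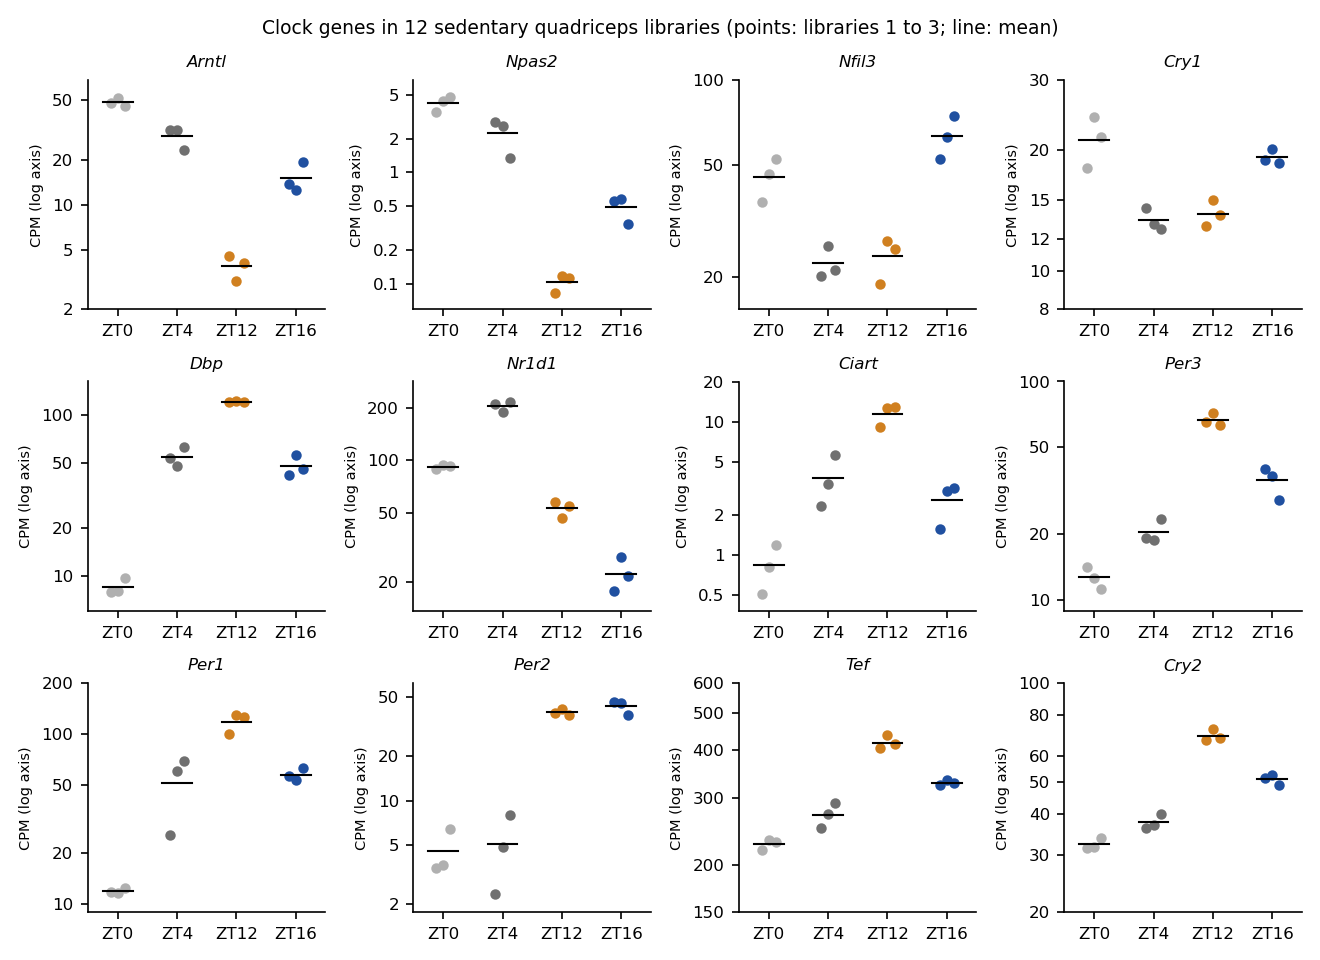
CPM (log axis) of 12 clock genes in the 12 sedentary quadriceps libraries, with a point per library and a line at the mean of 3. From ZT12 (orange) to ZT16 (blue) the points of Arntl, Npas2, Nfil3 and Cry1 move up and those of Dbp, Nr1d1, Ciart, Per3, Tef and Cry2 move down, while Per2 overlaps and the gap of Per1 missed the threshold.

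The sedentary libraries of the day (ZT0 and ZT4) share no library with the comparison and place it in the cycle. Arntl was at 47.8, 51.3 and 45.8 CPM at ZT0 and 31.3, 31.5 and 23.3 CPM at ZT4, so its ZT12 libraries were the lowest of the 4 times and its ZT16 libraries stood between ZT12 and ZT4 without overlap. Dbp was at 8.02, 8.04 and 9.68 CPM at ZT0 and 53.6, 48.3 and 63.1 CPM at ZT4, with ZT12 the highest, ZT0 the lowest, and ZT4 and ZT16 overlapping between them. Nr1d1 was at 89.2, 94 and 92.3 CPM at ZT0 and 213, 189.8 and 218 CPM at ZT4, with ZT16 the lowest and the order ZT4, ZT0, ZT12, ZT16 free of overlap. Per2 was at 3.52, 3.7 and 6.44 CPM at ZT0 and 2.36, 4.86 and 8.06 CPM at ZT4, and its ZT12 and ZT16 libraries did not differ beyond their spread, nor did those of ZT0 and ZT4. Only 29 genes (0.192%) passed between ZT0 and ZT4, 1495 at an unadjusted p under 0.05 with edgeR, against 1377 and 3828 between ZT12 and ZT16. The difference of the 2 changes, tested as 1 contrast, passed for 1535 genes (10.2%). Of the 1377 genes of the night comparison, 1023 also passed in the difference, 597 raised with a positive and 426 lowered with a negative difference. These tests use the same ZT12 and ZT16 libraries, so the overlap is a description.

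The 8 genes with the smallest p for that difference were Dbp, Banp, Cecr2, Sphk2, Arntl, Ypel2, Slc25a36 and Pwwp2b. Dbp rose by 2.68 ± 0.15 (log2) from ZT0 to ZT4 and fell from ZT12 to ZT16, a difference of -4.0 ± 0.21, adjusted p = 1e-09. Banp, a DNA binding protein of CG-rich promoters, was at 4.51, 3.46 and 3.91 CPM in the ZT12 libraries and 21.7, 17.7 and 19.5 CPM in the ZT16 libraries, against 6.29, 6.24 and 7.57 CPM at ZT0 and 4.09, 3.41 and 3.75 CPM at ZT4. Its ZT16 libraries exceeded all 9 other sedentary libraries. Its log2 fold change was 2.31 ± 0.14, adjusted p = 8.14e-09, the smallest p of the comparison, and the difference was 3.14 ± 0.20, adjusted p = 7.13e-09. Cecr2, a bromodomain protein of chromatin remodelling, was at 14.7, 18.5 and 15.1 CPM in the ZT12 libraries and 8.52, 9.2 and 7.45 CPM in the ZT16 libraries (log2 fold change -0.94 ± 0.09, adjusted p = 6.62e-06), and its difference was -1.72 ± 0.13, adjusted p = 1.04e-07. Sphk2, a sphingosine kinase, was at 12.6, 15.4 and 14.4 CPM in the ZT12 libraries and 26, 26.2 and 25.7 CPM in the ZT16 libraries (log2 fold change 0.88 ± 0.07, adjusted p = 8.08e-07). Its gene (chr7:45709463-45718002) overlaps the end of Dbp (chr7:45705100-45710203), and the strand setting of the authors' counting is not given, so reads of the overlap cannot be assigned here. Ypel2 (log2 fold change 1.18 ± 0.13, adjusted p = 2.53e-05), Slc25a36, a mitochondrial nucleotide carrier (log2 fold change 0.64 ± 0.08, adjusted p = 4.41e-05), and Pwwp2b (log2 fold change 0.85 ± 0.09, adjusted p = 2.01e-05) rose as well.

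Several genes of fasting and fatty acid use fell. Pdk4 (GRCm38.p6 chr6:5483351-5496278), a kinase that shuts pyruvate dehydrogenase in fasted muscle, was at 489, 618 and 619 CPM in the ZT12 libraries and 169, 264 and 241 CPM in the ZT16 libraries (log2 fold change -1.36 ± 0.29, adjusted p = 0.00682). All ZT16 libraries were below the ZT12 libraries. Pdp1, the opposing phosphatase, fell too, from 73.5, 85.4 and 85.2 CPM at ZT12 to 52.7, 51 and 43.8 CPM at ZT16 (log2 fold change -0.73 ± 0.09, adjusted p = 5.85e-05). Cpt1a, a gate of fatty acid entry into mitochondria, was at 12.6, 13.4 and 14.6 CPM in the ZT12 libraries and 9.02, 7.3 and 7.43 CPM in the ZT16 libraries (log2 fold change -0.77 ± 0.12, adjusted p = 0.000402). Angptl4, an inhibitor of lipoprotein lipase, was at 51.7, 14.7 and 6.6 CPM in the ZT12 libraries and 3.32, 1.58 and 4.62 CPM in the ZT16 libraries (log2 fold change -2.94 ± 0.79, adjusted p = 0.0285). The ZT12 libraries of Angptl4 follow the order of their adipocyte marker sums, and the part of those cells in the change was not tested. Without ZT12 replicate 1, the log2 fold change of Angptl4 was -1.75 with an adjusted p of 0.188, and the call was also lost without ZT16 replicate 1 or 2.

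Of 25 genes in the fatty acid list 4 fell (3.87% for all genes), among them Cpt1a, Pdk4 and Angptl4, none rose, 21 did not pass and the median was 0.13. The 4 became 2 without ZT12 replicate 1 and 2 without ZT16 replicate 2. Of 24 fasting and FoxO responsive genes, 3 fell (Pdk4, Angptl4 and Txnip; 3.87% for all genes), 1 rose (5.25%) and 20 did not pass, with a median of -0.15. Txnip, which curbs glucose uptake, was at 791, 634 and 625 CPM in the ZT12 libraries and 407, 435 and 527 CPM in the ZT16 libraries (log2 fold change -0.58 ± 0.13, adjusted p = 0.00735). The gene that rose was Irs1, an adaptor of the insulin receptor, at 67.8, 49.5 and 54.5 CPM in the ZT12 libraries and 79.1, 176 and 209 CPM in the ZT16 libraries (log2 fold change 1.43 ± 0.29, adjusted p = 0.00493), with ZT16 replicate 1 close to the ZT12 libraries. The call of Irs1 was lost in the fit of the 6 libraries alone (adjusted p = 0.131). The muscle ubiquitin ligases Fbxo32, at 312, 290.3 and 286 CPM in the ZT12 libraries and 147, 216 and 224 CPM in the ZT16 libraries (log2 fold change -0.60 ± 0.23, adjusted p = 0.106), and Trim63, at 215, 310.1 and 240.2 CPM in the ZT12 libraries and 139, 180.0 and 189 CPM in the ZT16 libraries (log2 fold change -0.59 ± 0.26, adjusted p = 0.171), were lower in every ZT16 library and did not pass. Irs2 had overlapping groups (log2 fold change 0.48 ± 0.34, adjusted p = 0.406). Of 25 genes of glucose and glycogen handling, 1 rose and 2 fell (Pdp1 and Txnip), a share near the 9.12% called among all genes. The rise was Tbc1d1, a regulator of glucose transporter traffic, at 45.6, 53.3 and 48.1 CPM in the ZT12 libraries and 95.6, 161 and 124 CPM in the ZT16 libraries (log2 fold change 1.37 ± 0.20, adjusted p = 0.000476). Of 24 genes of lipogenesis and sterol synthesis, 1 rose, Srebf2 (log2 fold change 0.24 ± 0.07, adjusted p = 0.0436), and none fell, a share below that of all genes. Srebf1 did not pass (log2 fold change -0.46 ± 0.27, adjusted p = 0.311).

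Glucocorticoid responsive genes, which follow an adrenal hormone that peaks around dusk in mice, fell more often than they rose. Hormone levels are not given in the sources used here, and their part in these falls was not tested. Of 23 measured, 5 fell (3.87% for all genes), 1 rose and 17 did not pass, with a median of -0.45 and 16 of 23 below 0. Arrdc2, an arrestin-domain gene, was at 122, 281 and 195 CPM in the ZT12 libraries and 50.8, 37.1 and 42.1 CPM in the ZT16 libraries (log2 fold change -2.21 ± 0.42, adjusted p = 0.00374), with a gap of more than 2-fold between the groups. Sgk1, a kinase of ion transport, was at 194, 238 and 203 CPM in the ZT12 libraries and 109, 127 and 149.9 CPM in the ZT16 libraries (log2 fold change -0.72 ± 0.19, adjusted p = 0.022), and Klf9, a zinc finger factor, at 124, 137 and 133 CPM in the ZT12 libraries and 91.7, 102 and 94.3 CPM in the ZT16 libraries (log2 fold change -0.45 ± 0.10, adjusted p = 0.00689). Pdk4 and Angptl4, already counted among the fasting and fatty acid genes, are the others that fell. Zbtb16 went up, from 58.2, 61.4 and 59.1 CPM at ZT12 to 136, 107 and 122 CPM at ZT16 (log2 fold change 1.03 ± 0.21, adjusted p = 0.00474). Leaving out ZT16 replicate 1 or replicate 2 left 3 of the 5 falls. In insulin and mTOR signalling, 3 of 25 rose (Irs1, Akt1 and Ddit4l; 5.25% for all genes) and 1 fell (3.87%), Pik3ip1, an inhibitor of PI3 kinase, at 54.6, 65.5 and 56.6 CPM in the ZT12 libraries and 36.9, 32 and 29.9 CPM in the ZT16 libraries (log2 fold change -0.84 ± 0.11, adjusted p = 0.000178). The 3 rises became 1 without ZT12 replicate 2, ZT12 replicate 3 or ZT16 replicate 2.

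**Figure D4:**
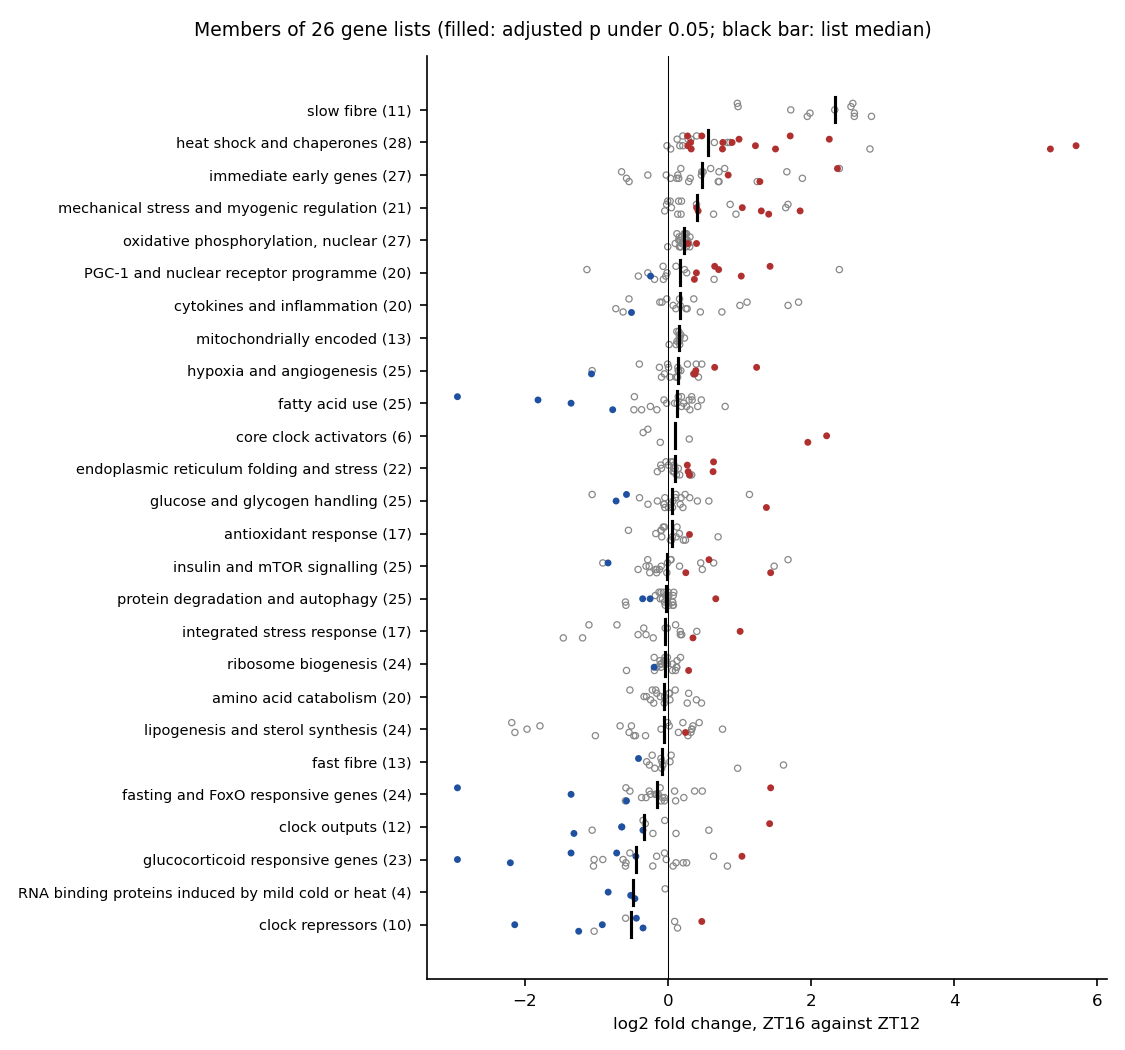
Log2 fold change from ZT12 to ZT16 (horizontal axis) of each member of the 26 gene lists, with the number measured in brackets; red and blue points passed the test, open points did not, and black bars are list medians. Heat shock members spread to the right and clock repressors to the left, and the slow fibre list has the highest median (2.33) with no member that passed.

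Stress genes outside the heat shock and chaperone list rose in small numbers. Of 22 genes of folding in the endoplasmic reticulum, 5 rose (5.25% for all genes) and none fell, with a median of 0.09. Manf, a secreted factor of this stress response, was at 8.21, 6.94 and 7.83 CPM in the ZT12 libraries and 13.6, 10.1 and 11.8 CPM in the ZT16 libraries (log2 fold change 0.63 ± 0.13, adjusted p = 0.00563), and Sdf2l1, an HSP40 cofactor of that compartment, at 2.01, 1.61 and 1.64 CPM in the ZT12 libraries and 2.75, 2.73 and 2.68 CPM in the ZT16 libraries (log2 fold change 0.63 ± 0.14, adjusted p = 0.00578). Hyou1 (0.30), Hsp90b1 (0.28) and Dnajc3 (0.27) rose less. The 5 became 2 without ZT12 replicate 2, 2 without ZT16 replicate 1 and 2 in the fit with the adipocyte score. In the integrated stress response 2 of 17 rose, with 5.25% for all genes: Atf4, its main transcription factor, from 144, 142 and 149 CPM at ZT12 to 169.6, 188 and 195 CPM at ZT16 (log2 fold change 0.35 ± 0.06, adjusted p = 0.00104), and Ddit3 (CHOP), from 8.35, 7.56 and 8.24 CPM at ZT12 to 16, 18.9 and 13.6 CPM at ZT16 (log2 fold change 1.01 ± 0.19, adjusted p = 0.00273). Calls among the 27 immediate early genes were 3 rises (5.25% for all genes) and no fall, and the 3 became 1 without ZT12 replicate 1, ZT12 replicate 2 or ZT16 replicate 2. Klf4 was at 16.8, 17.9 and 22.2 CPM in the ZT12 libraries and 41.9, 40 and 56.6 CPM in the ZT16 libraries (log2 fold change 1.28 ± 0.28, adjusted p = 0.00814), Ier3 at 4.9, 5.54 and 6.05 CPM in the ZT12 libraries and 10.7, 10.7 and 8.12 CPM in the ZT16 libraries (log2 fold change 0.84 ± 0.23, adjusted p = 0.0282) and Atf3 at 3.72, 2.78 and 3.16 CPM in the ZT12 libraries and 10.3, 13.9 and 25.6 CPM in the ZT16 libraries (log2 fold change 2.37 ± 0.72, adjusted p = 0.04999). Atf3 lay at the threshold and lost its call in all 6 fits without 1 library. Fos had a log2 fold change of 1.24 ± 0.85, adjusted p = 0.39, and overlapping groups, at 25.1, 18.1 and 28.8 CPM in the ZT12 libraries and 28.5, 42.8 and 99.3 CPM in the ZT16 libraries. Of 25 genes of protein degradation 1 rose and 2 fell, Bnip3l (-0.25) and Ctsl (-0.36), a share near the 9.12% called among all genes. The 2 falls became 0 without ZT12 replicate 2 and 0 without ZT16 replicate 2.

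Genes of the oxidative programme rose in part. Of 20 genes of the PGC-1 and nuclear receptor list, 6 rose (5.25% for all genes), 1 fell (Thra, -0.25) and 13 did not pass, with a median of 0.17. Ppargc1a, which encodes PGC-1 alpha, was at 22.8, 21.5 and 24.5 CPM in the ZT12 libraries and 30.1, 34.1 and 24.6 CPM in the ZT16 libraries (log2 fold change 0.37 ± 0.11, adjusted p = 0.0445), and ZT16 replicate 3 lay beside the ZT12 libraries. Vegfa, the growth factor of capillaries, was at 185, 148 and 176 CPM in the ZT12 libraries and 274, 280.1 and 246 CPM in the ZT16 libraries (log2 fold change 0.65 ± 0.11, adjusted p = 0.00103). Ppard was at 25.9, 30.4 and 28.4 CPM in the ZT12 libraries and 37.7, 39.8 and 33.7 CPM in the ZT16 libraries (log2 fold change 0.40 ± 0.09, adjusted p = 0.00995), and Perm1, a muscle partner of PGC-1, at 133, 174 and 201 CPM in the ZT12 libraries and 292, 314 and 225 CPM in the ZT16 libraries (log2 fold change 0.71 ± 0.18, adjusted p = 0.0201). Esrrb (1.42) and Ppara (1.02) completed the rises. The count of 6 was 1 without ZT12 replicate 1 and 1 without ZT16 replicate 2, and 3 with the slow fibre score as a covariate. The gene Thra (chr11:98740776-98769006) overlaps the end of Nr1d1 (chr11:98767932-98775377), with the same limit on reads as for Dbp and Sphk2.

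Nuclear genes of oxidative phosphorylation lay above 0 in 26 of 27 cases, with a median of 0.23, but 2 passed as rises (5.25% for all genes). These were Cox7a1 (log2 fold change 0.40 ± 0.11, adjusted p = 0.0338) and Cycs (log2 fold change 0.28 ± 0.08, adjusted p = 0.0452). At an unadjusted p under 0.05 with edgeR there were 20 of the 27, against 3828 of the 15097 genes tested. With the slow fibre or the adipocyte score as a covariate none passed, and leaving out 1 library gave 0 to 6. Their summed level was 11436, 12547 and 13119.9 CPM at ZT12 and 14606, 15174 and 13007 CPM at ZT16. The 13 mitochondrially encoded genes all lay between 0.01 and 0.23, and none passed, also none at an unadjusted p under 0.05. Of 25 hypoxia and angiogenesis genes, 5 rose (5.25% for all genes) and 1 fell (3.87%). Besides Vegfa these were Tek, an angiopoietin receptor on endothelium, at 17.8, 17.5 and 18.6 CPM in the ZT12 libraries and 23.7, 23.5 and 23.4 CPM in the ZT16 libraries (log2 fold change 0.39 ± 0.08, adjusted p = 0.0032), Egln3, an oxygen sensor (log2 fold change 1.24 ± 0.31, adjusted p = 0.0199), Flt1 (0.36) and Nos3 (0.38). The fall was Hif3a (log2 fold change -1.07 ± 0.30, adjusted p = 0.0303). The 9 endothelial markers, of which 1 passed and 7 lay above 0, summed to 284, 239.8 and 329 CPM at ZT12 and 355, 349 and 338 CPM at ZT16, and their part in these rises was not tested. The 5 rises became 2 without ZT12 replicate 2, 2 without ZT16 replicate 1 and 2 with the slow fibre score as a covariate.

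Myogenic and mechanosensitive genes rose in 6 of 21 cases (5.25% for all genes) and fell in none, with a median of 0.40. Yap1 and Wwtr1 (TAZ), the coactivators of the Hippo pathway, were at 41.6, 37.4 and 44.1 CPM in the ZT12 libraries and 54.7, 55.7 and 54.2 CPM in the ZT16 libraries (log2 fold change 0.42 ± 0.06, adjusted p = 0.000299) and at 19, 16.3 and 18.3 CPM in the ZT12 libraries and 22.3, 24.4 and 23.8 CPM in the ZT16 libraries (log2 fold change 0.40 ± 0.07, adjusted p = 0.0023). Both had narrow groups and passed in all 14 other settings of scaling, filter, model and libraries. Myod1, the myogenic master factor, was at 14.2, 14.3 and 16.2 CPM in the ZT12 libraries and 34.6, 41.5 and 34.4 CPM in the ZT16 libraries (log2 fold change 1.30 ± 0.37, adjusted p = 0.0375), a call lost in all 6 fits without 1 library although the groups were far apart. Myog, which acts after it, was at 2.73, 3.58 and 3.67 CPM in the ZT12 libraries and 6.85, 4.97 and 8.69 CPM in the ZT16 libraries (log2 fold change 1.04 ± 0.27, adjusted p = 0.0204). Ankrd2, a stretch-responsive protein found mainly in slow fibres, was at 34.7, 20.1 and 25.7 CPM in the ZT12 libraries and 89.3, 146 and 53.4 CPM in the ZT16 libraries (log2 fold change 1.84 ± 0.55, adjusted p = 0.0445), and Rcan1, an inhibitor of calcineurin, had a log2 fold change of 1.41 ± 0.42, adjusted p = 0.0459. Without 1 library the 6 became 2 to 3, with 2 without ZT12 replicate 1 and 2 without ZT12 replicate 2.

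Other lists held few calls. In the antioxidant list 1 of 17 rose (Txnrd1, 0.29), and in ribosome biogenesis 1 of 24 rose (Nop2, 0.29) and 1 fell (Dkc1, -0.20). Among 20 cytokine and inflammation genes Vcam1 fell (-0.52). Among 20 genes of amino acid catabolism none passed, with 5 at an unadjusted p under 0.05 with edgeR (3828 of 15097 for all genes). Each of these shares of calls is at or below the 9.12% called among all genes.

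Among the 12 largest rises by the naming rule, Dll1, G0s2, Bdh1 and Ppp1r27 belong to none of the gene lists described so far. Dll1, a Notch ligand, was at 4.05, 3.31 and 4.71 CPM in the ZT12 libraries and 7.92, 16.5 and 23 CPM in the ZT16 libraries (log2 fold change 1.98 ± 0.33, adjusted p = 0.0014). Its call was lost in the fit of the 6 libraries alone (adjusted p = 0.0779). Ppp1r27, a regulatory subunit of protein phosphatase 1, was at 27, 18.8 and 28.9 CPM in the ZT12 libraries and 83, 86.2 and 80.2 CPM in the ZT16 libraries (log2 fold change 1.74 ± 0.20, adjusted p = 5.85e-05), with groups more than 2-fold apart at their closest. G0s2, which inhibits the main fat lipase, was at 32.1, 14.4 and 10.6 CPM in the ZT12 libraries and 105, 63 and 39.5 CPM in the ZT16 libraries (log2 fold change 1.86 ± 0.40, adjusted p = 0.00785). Its call was lost without ZT12 replicate 2 and in the fit of the 6 libraries alone. In both groups the G0s2 libraries follow the order of their slow fibre sums. Bdh1, an enzyme of ketone body use, was at 11.8, 7.39 and 11.8 CPM in the ZT12 libraries and 32.1, 65 and 18.1 CPM in the ZT16 libraries (log2 fold change 1.89 ± 0.49, adjusted p = 0.0237), and lost its call without ZT12 replicate 1 or 2 or ZT16 replicate 2. Dynll1, a dynein light chain named after its values were seen, was at 13.9, 12.9 and 14 CPM in the ZT12 libraries and 32.9, 26.7 and 32.1 CPM in the ZT16 libraries (log2 fold change 1.17 ± 0.10, adjusted p = 1.74e-06).

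Among the falls, Slc43a1, an amino acid transporter, was at 27.7, 25.4 and 20 CPM in the ZT12 libraries and 9.4, 8.03 and 8.96 CPM in the ZT16 libraries (log2 fold change -1.47 ± 0.16, adjusted p = 2.52e-05) and Klhl38, a kelch protein of muscle, at 45.2, 59.7 and 49.8 CPM in the ZT12 libraries and 18.7, 19.4 and 19.1 CPM in the ZT16 libraries (log2 fold change -1.44 ± 0.23, adjusted p = 0.00107). Both passed in all 14 other settings of scaling, filter, model and libraries. The other large falls outside the lists had their highest value in ZT12 replicate 1. Rasd1, a small GTPase induced by dexamethasone, was at 20.3, 6.09 and 2.49 CPM in the ZT12 libraries and 1.87, 1.19 and 2.14 CPM in the ZT16 libraries (log2 fold change -2.47 ± 0.62, adjusted p = 0.0194). Slc22a3, an organic cation transporter, was at 10.1, 3.15 and 1.79 CPM in the ZT12 libraries and 1.48, 0.921 and 1.13 CPM in the ZT16 libraries (log2 fold change -2.09 ± 0.60, adjusted p = 0.0369), and Fam13a at 64.2, 23.3 and 15.4 CPM in the ZT12 libraries and 13, 12.9 and 11.6 CPM in the ZT16 libraries (log2 fold change -1.46 ± 0.45, adjusted p = 0.04992). Cxcl9, Gstt2 and Fbxo21 had the same order of ZT12 libraries, from replicate 1 down to replicate 3. Calls of Rasd1, Slc22a3, Fam13a and Cxcl9 were lost without ZT12 replicate 1, and those of Gstt2 and Fbxo21 were not. In the fit of the 6 libraries alone the calls of Gstt2 and Fbxo21 were lost as well, at an adjusted p of 0.0954 and 0.135. Those of Slc22a3, Fam13a and Cxcl9 were also lost without ZT12 replicate 2 or any 1 of the ZT16 libraries, and that of Rasd1 without ZT16 replicate 1 or 2.

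**Figure D5:**
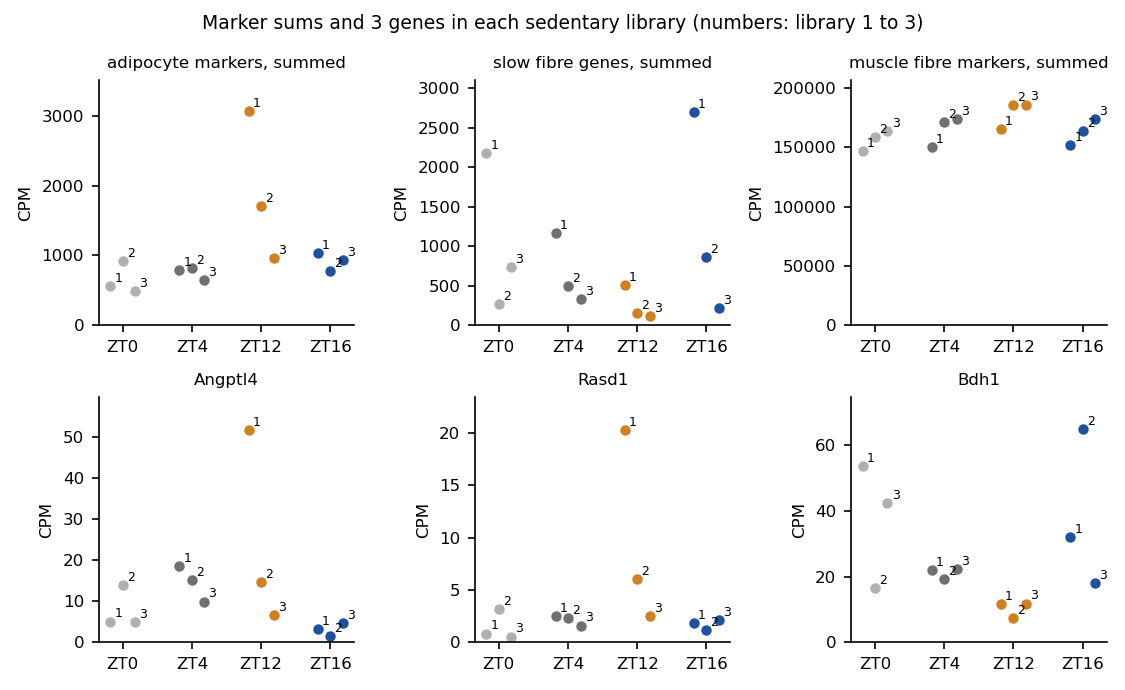
Summed CPM of adipocyte, slow fibre and muscle fibre markers and CPM of Angptl4, Rasd1 and Bdh1 (vertical axes, from 0) in each sedentary library, numbered 1 to 3 within its group. ZT12 replicate 1 is the highest point for the adipocyte sum, Angptl4 and Rasd1, and ZT16 replicate 1 for the slow fibre sum.

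Cell type and fibre markers moved with some of these results. All 10 adipocyte markers, none at 0, had a log2 fold change below 0, with a median of -1.45, and none passed. Adipoq, the fat cell hormone adiponectin, was at 207, 78.6 and 29.7 CPM in the ZT12 libraries and 43.2, 20.4 and 40.3 CPM in the ZT16 libraries (log2 fold change -1.60 ± 0.78, adjusted p = 0.213). The summed adipocyte markers were 556, 915 and 487 CPM at ZT0 and 792, 815 and 644 CPM at ZT4, so ZT12 replicates 1 and 2 exceeded all other sedentary libraries. The order of the ZT12 libraries in this sum is that of Rasd1, Slc22a3, Fam13a, Cxcl9, Gstt2 and Fbxo21, and its part in their change was not tested. All 11 slow fibre genes had a log2 fold change above 0 and none passed. Myl3, a slow myosin light chain, was at 72.6, 15.1 and 18.5 CPM in the ZT12 libraries and 313, 198 and 22.5 CPM in the ZT16 libraries (log2 fold change 2.33 ± 1.12, adjusted p = 0.204), with ZT16 replicate 3 near the ZT12 libraries. The slow sums at the other times were 2181, 266 and 739 CPM at ZT0 and 1170.3, 499 and 326 CPM at ZT4, which spread as widely within ZT0. The part of slow fibres in the rises of Ankrd2, Esrrb, Perm1 and G0s2 was not tested.

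In the fit with the adipocyte score 952 genes passed in place of 1377, and in that with the slow fibre score 1020. Eng, an endothelial marker, rose (log2 fold change 0.87 ± 0.12, adjusted p = 0.000223), as 1 of 9 endothelial genes, of which 7 lay above 0. Pdgfra of 9 fibroblast genes rose (0.35), and Acta2 (0.82) and Notch3 (0.36) of 8 smooth muscle genes. Satellite cell markers had 1 fall in 6 (Vcam1), and none of the erythroid (5), neutrophil (5), macrophage (9), lymphocyte (4), nerve (8) or tendon (6) markers measured passed. All 6 tendon markers lay above 0, with a median log2 fold change of 0.87 and sums of 241, 175 and 328 CPM at ZT12 and 715, 416 and 251 CPM at ZT16. All 9 macrophage markers (median 0.27) and all 5 erythroid markers (median 0.28) lay above 0 as well. Summed neutrophil and lymphocyte markers stayed under 3 CPM in all 6 libraries. Among fast fibre genes Actn3 fell (log2 fold change -0.43 ± 0.10, adjusted p = 0.00909) and 12 of 13 did not pass.

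Mice that ran on the treadmill in a session at ZT12 were sampled at other times, the end of the run (ZT12.5) and 3 h later (ZT15.5), and their values are given side by side without a comparison. Arntl in these runners was at 4.87, 5.91 and 4.4 CPM at the end of the run and 22.4, 24.7 and 19.4 CPM 3 h later, and Dbp at 71.6, 93.1 and 100.1 CPM at the end of the run and 47.7, 43.9 and 42.8 CPM 3 h later. Hspa1a was at 203, 171 and 392 CPM at the end of the run and 105, 235 and 160.5 CPM 3 h later, and Pdk4 at 845, 540.0 and 438 CPM at the end of the run and 2986, 3049 and 3173 CPM 3 h later.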

How the data were processed

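Messenger RNA of snap-frozen quadriceps was sequenced from stranded TruSeq libraries, per the labels' protocols. The authors deposited estimated counts per gene for each of 2 lanes per library, 80 columns in all. The builds GRCm38.p6 and mm10 and the tools kallisto 0.46.2, DESeq2 1.26.0 and bcl2fastq 2.20.0.422 are named in the submitters' processing notes. How transcripts were summed to genes, the annotation and the strand setting are not given in the sources used here. Of 23621 rows, 23614 matched a RefSeq gene table, and the 7 others held 0.00139% of the counts.

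Lanes were summed and rounded to whole numbers. All 24 quadriceps libraries (8 groups of 3) entered 1 edgeR quasi-likelihood fit (edgeR 4.0.16, limma 3.58.1, R 4.3.3; TMM factors, robust fit, minimum count 10, 15097 genes), with Benjamini-Hochberg adjustment over all genes tested and a threshold of 0.05. The contrasts were ZT16 against ZT12 and its difference from ZT4 against ZT0. This fit gave the adjusted p values printed unless another setting is named, and values after ± are standard errors. CPM were computed from TMM-scaled library sizes. No pair of libraries in a group agreed within sampling noise. The libraries are read as separate animals from a tag in each description. If that is wrong, the p values measure only the spread between these samples.

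Named genes were the 12 largest rises and falls among called genes that averaged 1 or more in log2 CPM and had groups without overlap, up to 4 genes of the smallest p per list, all genes of the 3 clock lists, 11 genes fixed by name, and the 8 smallest p of the difference; 141 genes met the rule and a subset is printed. A few of them are not reported here. The other genes named are members of a gene or marker list, picked for print after their values were seen, or are said to be named in that way. The comparison, the 26 gene lists and 12 marker lists were chosen with earlier results of these data known. Alternatives were other scaling factors, filters, sets of libraries, a replicate block, DESeq2 1.42.0 and leaving out each library. Scores of adipocyte and slow fibre markers were added as covariates after the data were seen. The tests were checked on simulated data.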

Additional observations from a re-analysis of the deposited data

Results flagged for a closer look

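The change from ZT12 to ZT16 differed from the change from ZT0 to ZT4, tested in edgeR as 1 contrast over 4 groups of sedentary libraries, for 1535 genes. Differences below are log2 fold change ZT16 against ZT12 minus log2 fold change ZT4 against ZT0, all with an adjusted p under 0.05, and the 2 changes share no library. With 3 libraries per group, no group was tested for single outlying libraries.

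Of the 6 clock activators 2 passed in the difference, Arntl by 2.70 and Npas2 by 3.11. Of the repressors, Per1 differed by -3.15, Per3 by -1.61, Cry2 by -0.67, Nr1d1 by -2.42, Nr1d2 by -0.82, Ciart by -4.31 and Bhlhe41 by -1.13, and Cry1 by 1.14. Per1 and Bhlhe41 did not pass from ZT12 to ZT16 alone. Among clock outputs Dbp differed by -4.0, Tef by -0.60, Hlf by -0.96, Usp2 by -0.85, Pfkfb3 by -2.48 and Tspan4 by -0.98, while Nfil3 differed by 2.44 and Ppp1r3c by 1.14. Heat shock genes differed by 4.71 for Hspa1a, 5.16 for Hspa1b and 0.86 for Hspa8. The fuel genes Pdk4 and Cpt1a differed by -2.29 and -1.69. Of the genes with the smallest p, Banp differed by 3.14, Cecr2 by -1.72, Sphk2 by 1.13, Ypel2 by 1.97, Slc25a36 by 1.10 and Pwwp2b by 1.35. Of these 29 genes, 24 passed in all 19 other settings of scaling, filter, model and libraries, and Hspa1a, Hspa1b, Tspan4, Usp2 and Ppp1r3c did not.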

How the results depend on the processing

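The settings were followed for 106 genes that passed from ZT12 to ZT16, named by the rule or picked after their values were seen. Of these, 54 passed in all 14 other settings of scaling, filter, model and libraries, 52 were lost in at least 1 and none reversed. With RLE factors 1357 genes passed, with upper-quartile factors 1389 (674 raised, 715 lowered), without a filter on low counts 1166, with a minimum count of 50 1407, over the 12 sedentary libraries 1435 and with DESeq2 1857. For the difference from ZT4 against ZT0 the same settings gave 1529, 1513 (731 higher, 782 lower), 1326, 1574, 1527 and 1952. A fit of the 6 libraries alone gave 549 (356 raised, 193 lowered), with fewer libraries to estimate the spread. Leaving out 1 library gave 576 to 1416 calls, 347 to 768 raised and 229 to 672 lowered, with the lowest value of each without ZT12 replicate 2. For the difference it gave 867 to 1627, 514 to 1020 higher and 353 to 688 lower, with 867 without ZT0 replicate 3, 956 without ZT12 replicate 2 and 990 without ZT4 replicate 3. The cause was not tested. With a replicate block, 1282 genes passed from ZT12 to ZT16 and 1447 in the difference. Deviations of same-numbered ZT12 and ZT16 libraries correlated at 0.071, 0.003 and -0.087, and those of differently numbered pairs between -0.205 and 0.21. For ZT0 and ZT4 the same-numbered pairs gave 0.187, 0.103 and 0.116, and the others between -0.11 and -0.005. Whether same-numbered libraries share a batch cannot be told from so few pairs. The covariates chosen after seeing the data gave 952 and 1170 calls (adipocyte score) and 1020 and 1188 (slow fibre score). Genes that did not pass and lay near 0 changed sign. Per2 was -0.038 with the slow fibre score. Without 1 library, Hnrnpdl ran from -0.065 to 0.00098, Bhlhe40 from -0.00049 to 0.22, Tsc22d3 from -0.033 to 0.24 and Tcap from -0.17 to 0.051. Precision is limited by 3 libraries per group.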

Other observations

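8 genes outside the lists are given as values; all were chosen after their values were seen, and each passed in all 14 other settings of scaling, filter, model and libraries. Serpinh1, the collagen chaperone HSP47, was at 49.7, 39.2 and 47.4 CPM in the ZT12 libraries and 114, 96.4 and 119 CPM in the ZT16 libraries (log2 fold change 1.27 ± 0.24, adjusted p = 0.00304). P4ha1 and P4ha2, which encode collagen prolyl hydroxylase subunits, were at 37.8, 32.6 and 36.4 CPM in the ZT12 libraries and 65.7, 52.4 and 62.7 CPM in the ZT16 libraries (log2 fold change 0.76 ± 0.12, adjusted p = 0.000779) and at 19.2, 21.1 and 24.1 CPM in the ZT12 libraries and 36, 33.8 and 35.1 CPM in the ZT16 libraries (log2 fold change 0.71 ± 0.08, adjusted p = 3.74e-05). The ZT16 libraries lay above the ZT12 libraries for all 3 genes. The 6 tendon markers, all above 0 with a median log2 fold change of 0.87, summed to 241, 175 and 328 CPM at ZT12 and 715, 416 and 251 CPM at ZT16. Of the 9 fibroblast and matrix markers 7 lay above 0, with a median of 0.34, 1 passed and they summed to 1219, 986 and 1291 CPM at ZT12 and 1771, 1203 and 1533 CPM at ZT16. The part of these cells in the rises of Serpinh1, P4ha1 and P4ha2 was not tested.

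Slc38a2, a neutral amino acid transporter, was at 67.4, 62.6 and 66.5 CPM in the ZT12 libraries and 124, 169 and 186 CPM in the ZT16 libraries (log2 fold change 1.29 ± 0.25, adjusted p = 0.00376), and Slc38a3, a glutamine transporter, at 35.9, 61.8 and 52.4 CPM in the ZT12 libraries and 126, 123 and 93.1 CPM in the ZT16 libraries (log2 fold change 1.19 ± 0.24, adjusted p = 0.00518). Slc16a1, the lactate transporter MCT1, was at 22.3, 20.5 and 24.1 CPM in the ZT12 libraries and 46.1, 48.4 and 36.9 CPM in the ZT16 libraries (log2 fold change 0.98 ± 0.18, adjusted p = 0.00233). Slc43a1, another amino acid transporter, fell. Asb2, a muscle ubiquitin ligase subunit, was at 327, 402 and 375 CPM in the ZT12 libraries and 609.7, 659 and 711 CPM in the ZT16 libraries (log2 fold change 0.84 ± 0.11, adjusted p = 0.000171), and Pde4b, a cyclic AMP phosphodiesterase, at 39.7, 34.6 and 49.1 CPM in the ZT12 libraries and 74, 89.5 and 106 CPM in the ZT16 libraries (log2 fold change 1.13 ± 0.14, adjusted p = 7.71e-05). No group of these 8 genes overlapped between the times.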
